A study of Homo sapiens with 6 samples.

Results

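Mitochondria carry their own ribosomes, which translate the few respiratory chain proteins that the mitochondrial genome encodes. The RNAs of the mitochondrial ribosome are made inside the organelle, but all of its proteins are encoded in the nucleus, made in the cytosol and imported. Some of these proteins descend from bacterial ribosomal proteins, and others were added during the evolution of mitochondria. The genes are named MRPL for the large subunit and MRPS for the small subunit, with a few exceptions in which an MRPS gene encodes a protein of the large subunit. They were taken here as every gene whose symbol begins with MRPL or MRPS and a number. This gave 74 of the 17687 named genes, or 74 of the 21448 transcript probe sets, with 1 probe set per gene. Of the 74 genes, 49 encode proteins of the large subunit, MRPS18A and MRPS30 among them, and 25 encode proteins of the small subunit. By textbook knowledge, 47 have a bacterial counterpart and 27 do not.

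The RNA came from A431 cells, a human line derived from an epidermoid carcinoma that makes unusually large amounts of the receptor for epidermal growth factor (EGFR), and was measured on 6 arrays, 2 in each of 3 groups. The EGF plus gefitinib group received 100 ng/ml of epidermal growth factor (EGF), the ligand of EGFR, together with gefitinib at 10 µM, a drug that blocks the kinase of this receptor. The EGF group received the same dose of EGF alone, and the control group received neither. All cells had been starved for 24 h and, per the labels, were harvested 30 min after treatment; the labels do not say whether gefitinib preceded EGF. The labels name the samples of a group as biological replicates without stating separate cultures, and the p-values therefore reflect the spread among these 6 samples alone, some of which may be technical. All values are deposited signals on a log2 scale, on which a difference of 1 is a doubling, and the number of arrays limits their precision. In RNA from a whole culture, fewer cells that express a gene and less RNA of it per cell cannot be told apart.

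The limit of detection on each array was set at the 95th percentile of 612 negative-control probe sets and lay between 7.14 and 7.65. Between 38.4% and 42.1% of all transcript probe sets lay above it. The keratinocyte and epithelial markers fixed for A431 were far above it, with 6 of 6 measured markers between 11.26 and 16.86 on all arrays. Of the markers of other cell types, 1 of 5 leukocyte markers (CD68) was above it on every array, as was LUM among the 5 fibroblast markers, while COL1A1, DCN, PDGFRB, PTPRC, CD3E, CD14, LYZ, PECAM1, VWF and KDR were at or below it on all 6. COL1A2 was above it on both control arrays and on none of the others. The endothelial CDH5 reached it on 1 EGF plus gefitinib array and 1 control array. The summed linear signal of the fibroblast markers was 533 and 722 with EGF plus gefitinib, 471 and 599 with EGF and 1009 and 1082 in the control. That of the endothelial markers was 258 and 280 with EGF plus gefitinib, 80 and 99 with EGF and 180 and 230 in the control. That of the leukocyte markers was 5007 and 6645 with EGF plus gefitinib, 7447 and 8786 with EGF and 7052 and 7210 in the control. Their part in the results below was not tested. As a check of the treatment, DUSP6, an ERK phosphatase induced by EGF signalling, had 11.23 and 10.90 with EGF plus gefitinib, 12.58 and 12.42 with EGF and 8.36 and 8.56 in the control. TXNIP, which growth factor signalling represses, had 11.35 and 11.42 with EGF plus gefitinib, 5.74 and 5.84 with EGF and 10.39 and 10.11 in the control.

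Promoters of 66 of the 74 genes were found in the RefSeq table (GRCh38.p14, from 250 bases before to 50 bases after the start of the gene). Those of the 4 genes with the largest falls under gefitinib are printed, together with that of MRPS10, which holds matches to more than 1 motif. The capitals mark matches, on either strand, to CCGGAAG, a core of the sites of ETS factors such as GABP, AAGATGGCG, a core of the YY1 site, or CACGTG, the E-box that MYC binds.
MRPS17: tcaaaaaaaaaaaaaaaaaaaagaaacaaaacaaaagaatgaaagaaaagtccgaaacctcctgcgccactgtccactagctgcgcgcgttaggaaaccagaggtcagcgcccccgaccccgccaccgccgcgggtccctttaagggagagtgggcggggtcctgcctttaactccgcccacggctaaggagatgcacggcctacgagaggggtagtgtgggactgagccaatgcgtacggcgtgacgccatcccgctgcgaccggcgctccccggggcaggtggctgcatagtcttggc
MRPL36: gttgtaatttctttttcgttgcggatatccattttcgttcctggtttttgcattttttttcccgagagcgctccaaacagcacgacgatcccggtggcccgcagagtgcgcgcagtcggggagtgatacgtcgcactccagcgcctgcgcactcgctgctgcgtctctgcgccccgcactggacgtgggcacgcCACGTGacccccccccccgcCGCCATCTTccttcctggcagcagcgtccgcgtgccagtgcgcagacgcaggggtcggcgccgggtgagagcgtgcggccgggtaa
MRPL20: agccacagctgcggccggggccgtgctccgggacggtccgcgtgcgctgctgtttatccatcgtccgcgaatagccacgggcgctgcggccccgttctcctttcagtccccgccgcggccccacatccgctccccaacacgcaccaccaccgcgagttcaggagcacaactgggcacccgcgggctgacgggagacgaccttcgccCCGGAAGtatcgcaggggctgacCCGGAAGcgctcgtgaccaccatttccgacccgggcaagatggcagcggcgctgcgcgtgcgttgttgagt
MRPL50: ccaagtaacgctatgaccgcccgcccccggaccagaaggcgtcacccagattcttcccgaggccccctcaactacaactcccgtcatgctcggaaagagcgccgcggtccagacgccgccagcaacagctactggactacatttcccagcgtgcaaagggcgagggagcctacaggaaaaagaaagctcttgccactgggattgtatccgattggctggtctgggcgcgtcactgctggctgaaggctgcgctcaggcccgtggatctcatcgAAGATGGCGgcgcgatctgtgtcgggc
MRPS10: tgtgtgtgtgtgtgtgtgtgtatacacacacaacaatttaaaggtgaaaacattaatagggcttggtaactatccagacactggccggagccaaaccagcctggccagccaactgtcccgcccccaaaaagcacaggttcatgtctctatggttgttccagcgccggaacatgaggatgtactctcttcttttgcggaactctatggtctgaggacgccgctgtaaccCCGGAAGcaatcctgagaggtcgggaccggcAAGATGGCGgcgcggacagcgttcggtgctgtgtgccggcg
The MRPS17 promoter is at chr7:55951627-55951926 on the plus strand and held none of these motifs. The MRPL36 promoter, at chr5:1799788-1800087 on the minus strand, held the YY1 core in reverse complement 36 bases before the start and an E-box 56 bases before it. The MRPL20 promoter, at chr1:1407244-1407543 on the minus strand, held 2 copies of the ETS core, 44 and 21 bases before the start. The MRPL50 promoter, at chr9:101398569-101398868 on the minus strand, held the YY1 core 23 bases after the start. The MRPS10 promoter, at chr6:42217812-42218111 on the minus strand, held the ETS core 22 bases before the start and the YY1 core 9 bases after it.

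Over the 66 promoters, 28 (42.4%) held the ETS core, against 14.3% of the 14250 named genes on the array with a promoter in the table. The YY1 core was in 13 (19.7%), against 2.79% of named genes. An E-box was in 5 (7.58%), against 8.69%, and GCGCATGCG, a site of the mitochondrial regulator NRF1, in 3 (4.55%), against 2.82%. The ETS core ends in the letters with which the YY1 core begins, so a match to one can overlap a match to the other. The promoters of 49 cytosolic ribosomal protein genes held the ETS core in 32.7% and the YY1 core in 10.2%. Those of 63 nuclear genes of oxidative phosphorylation held the ETS core in 27%, the YY1 core in 11.1% and the NRF1 site in 15.9%. Among the mitochondrial ribosomal protein genes, the ETS core was in 10 of the 25 promoters of genes that fell under gefitinib (40.0%), and in 17 of 40 of those called in neither EGF against control nor EGF plus gefitinib against EGF (42.5%). The YY1 core was in 4 of those 25 (16%) and 9 of those 40 (22.5%). These are matches of letters, not binding sites. A different gene started within 1000 bases on the opposite strand, pointing away, for 22 of 66 (33.3%), against 18.8% of named genes. MRPS11 and MRPL46 form such a pair, with starts 320 bases apart.

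Of the 74 genes, 63 and 63 were above the limit on the EGF plus gefitinib arrays, 68 and 68 on the EGF arrays and 67 and 64 on the control arrays, and 61 were above it on all 6. At or below the limit on both arrays of a group were 9 genes with EGF plus gefitinib (MRPL19, MRPL22, MRPL28, MRPL33, MRPL52, MRPL54, MRPL55, MRPS12 and MRPS31), 5 with EGF (MRPL33, MRPL52, MRPL54, MRPS12 and MRPS31) and 7 in the control (MRPL33, MRPL52, MRPL54, MRPL55, MRPS12, MRPS26 and MRPS31). The arrays of a group lay close together for most genes, least so with EGF plus gefitinib. The median SD over the 74 genes was 0.136 with EGF plus gefitinib, 0.068 with EGF and 0.105 in the control. The largest SD was that of MRPL21 with EGF plus gefitinib (0.685), whose signals there were 9.89 and 8.92. Next in that group were MRPL49 (0.670), MRPL40 (0.575), MRPL32 (0.555), MRPL34 (0.537), MRPL4 (0.532) and MRPS27 (0.528). Each of these genes, MRPL21 included, had its lower signal on replicate 2.

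Each gene's signal was set against its own mean over the 6 arrays, and the median was taken over the 74 genes. This median was -0.14 and -0.34 on the EGF plus gefitinib arrays, 0.20 and 0.24 on the EGF arrays and 0.04 and -0.02 on the control arrays. The EGF arrays were the highest and the EGF plus gefitinib arrays the lowest, with no overlap between the groups. The same median over 55 cytosolic ribosomal protein genes was 0.23 and 0.16 with EGF plus gefitinib, -0.18 and -0.11 with EGF and -0.05 and -0.04 in the control, an order opposite to that of the mitochondrial ribosomal proteins. Over 79 nuclear genes of oxidative phosphorylation it was 0.06 and -0.11 with EGF plus gefitinib, -0.08 and -0.02 with EGF and 0.15 and 0.09 in the control, with the EGF plus gefitinib and EGF arrays overlapping.

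**Figure D1:**
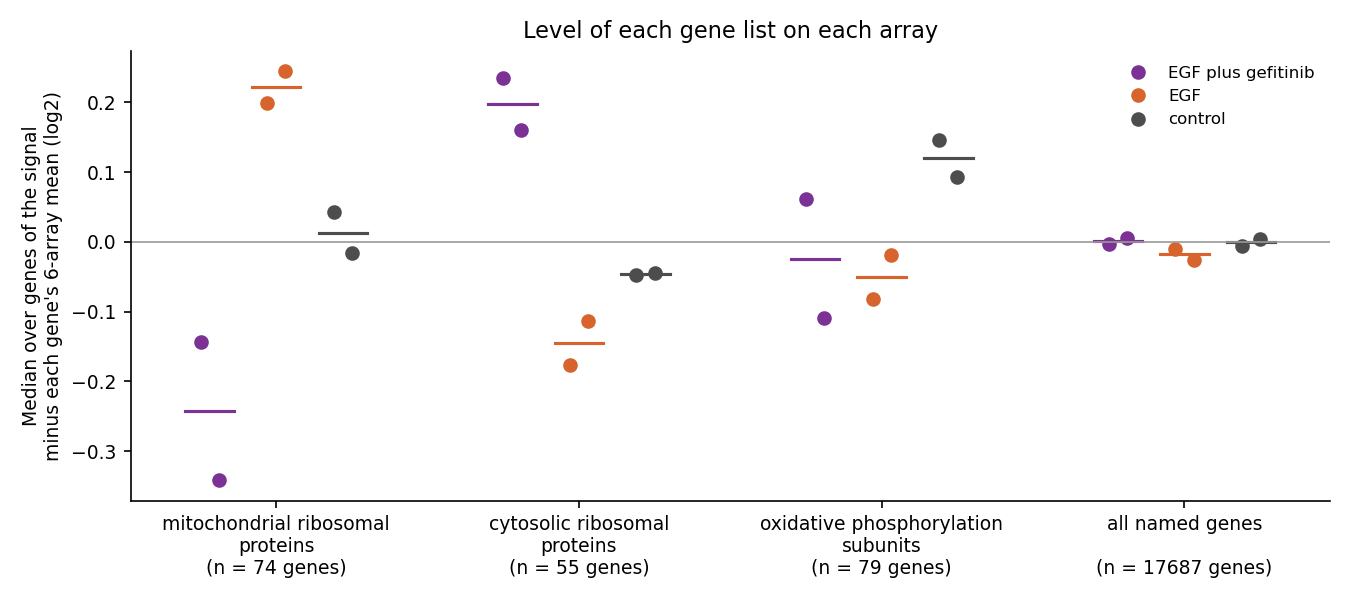
Median level of each gene list on each of the 6 arrays (y axis, log2, each gene set against its own mean over the arrays); points are arrays and lines are group means. For the 74 mitochondrial ribosomal protein genes the EGF arrays stand at 0.20 and 0.24 and the EGF plus gefitinib arrays at -0.14 and -0.34, while the 55 cytosolic ribosomal protein genes run the other way.

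The first comparison asked which of these genes EGF changed. Of the 74, 8 rose with EGF and 0 fell (limma, adjusted p under 0.05 over all 21448 probe sets). The 8 are 10.8% of the 74, against 6.61% of all probe sets called higher and 12.9% of the 8646 probe sets whose mean was above the mean limit of 7.38, where 67 of the 74 lay. For falls the same shares were 5.30% and 9.58%. The share that rose was thus near that of other measurable probe sets. The median change over the 74 genes was 0.19, against -0.03 over all named genes, and the changes ran from -0.59 to 1.41. All EGF signals were above all control signals for 38 genes (27% of all probe sets) and below them for 16 (28.5%).

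**Figure D2:**
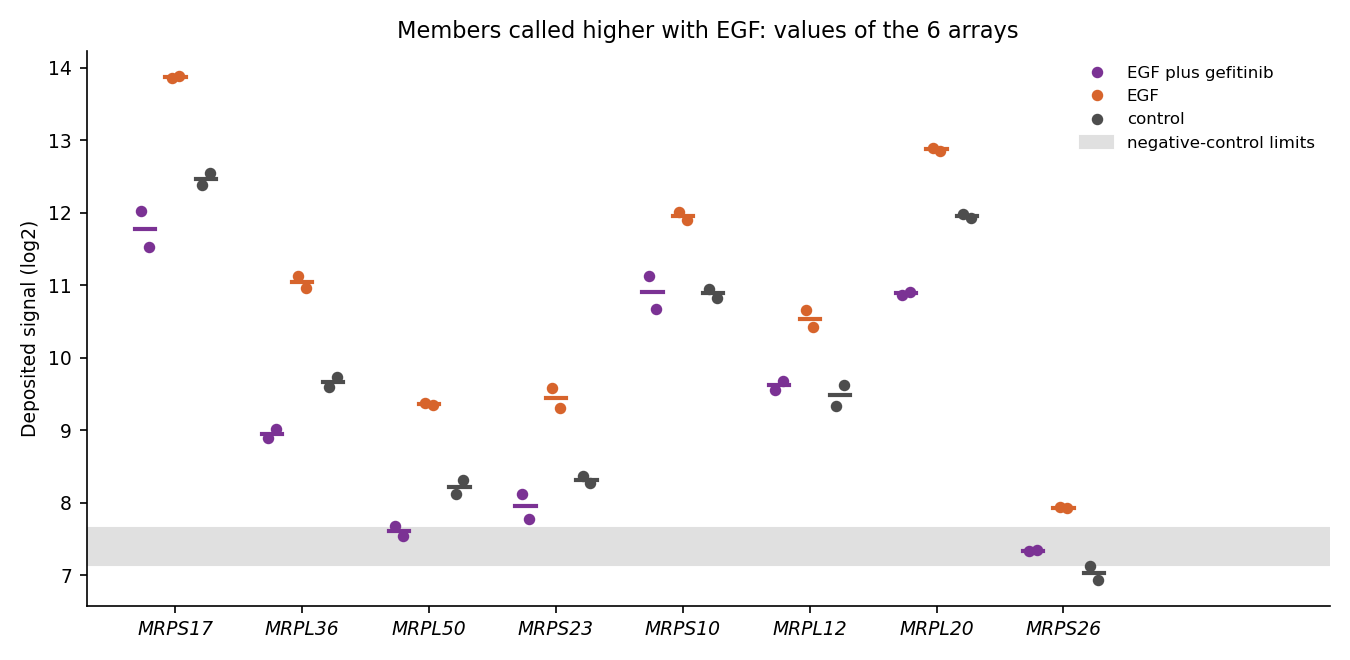
Signals of the 8 genes that rose with EGF (y axis, deposited log2 signal), with 1 point per array, a line at each group mean and a grey band over the range of negative-control limits, 7.14 to 7.65. For each gene both EGF points stand above both control points and above both EGF plus gefitinib points.

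MRPS17, a small subunit protein with a bacterial counterpart that binds ribosomal RNA, had 12.02 and 11.53 with EGF plus gefitinib, 13.86 and 13.89 with EGF and 12.38 and 12.55 in the control. It was highest with EGF, and the groups did not overlap. Its change with EGF was 1.41 ± 0.22 (SE, n = 2 arrays per group, as for all changes here), a 2.65-fold rise (limma adjusted p = 0.00847). MRPL36, a small zinc-binding protein of the large subunit, had 8.90 and 9.01 with EGF plus gefitinib, 11.13 and 10.96 with EGF and 9.59 and 9.73 in the control, again in 3 separate groups. It rose by 1.38 ± 0.18, or 2.60-fold (limma adjusted p = 0.00471), and it alone among the 8 was called whichever array of the compared groups was left out.

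MRPL50, a large subunit protein without a bacterial counterpart, had 7.68 and 7.54 with EGF plus gefitinib, 9.37 and 9.35 with EGF and 8.12 and 8.31 in the control. It rose with EGF by 1.14 ± 0.18 (limma adjusted p = 0.00902). MRPS23, a small subunit protein also without one, had 8.13 and 7.78 with EGF plus gefitinib, 9.58 and 9.30 with EGF and 8.37 and 8.27 in the control. Its rise with EGF was 1.12 ± 0.20 (limma adjusted p = 0.0155). In both genes the EGF arrays stood clear of the other 4 arrays, and the EGF plus gefitinib arrays lay below the control.

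MRPS10, a small subunit protein with a bacterial counterpart, had 11.13 and 10.68 with EGF plus gefitinib, 12.02 and 11.91 with EGF and 10.94 and 10.83 in the control. The EGF plus gefitinib and control arrays overlapped, and the rise with EGF was 1.07 ± 0.21 (limma adjusted p = 0.0192). MRPL12, the protein of the flexible stalk of the large subunit, where translation factors dock, had 9.56 and 9.68 with EGF plus gefitinib, 10.65 and 10.42 with EGF and 9.34 and 9.63 in the control. It rose with EGF by 1.06 ± 0.19 (limma adjusted p = 0.0161), and here too the EGF plus gefitinib and control arrays overlapped. MRPL20, whose counterpart in Escherichia coli binds ribosomal RNA early in assembly, had 10.87 and 10.91 with EGF plus gefitinib, 12.89 and 12.85 with EGF and 11.98 and 11.93 in the control. Its rise with EGF was 0.92 ± 0.17 (limma adjusted p = 0.0156), and its arrays fell into 3 separate groups. MRPS26 had 7.34 and 7.34 with EGF plus gefitinib, 7.93 and 7.93 with EGF and 7.13 and 6.93 in the control. Both control arrays were at or below the limit, so the rise was at least 1.56-fold (limma adjusted p = 0.0187).

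When 1 array of the compared groups was left out, MRPS17 and MRPL50 were still called in 1 of 4 fits, without control replicate 2, and MRPL12, MRPL20, MRPS10, MRPS23 and MRPS26 in 0 of 4. The count of rises was then 1 to 3 of 74, while the probe sets called in either direction dropped to between 726 and 839, against 2554 with all arrays. In the other direction, the count of rises grew to 19 of the 67 genes that passed a filter on dim probe sets. There 2206 of 9003 probe sets were called higher, and 2 of the genes were called lower. The filter kept probe sets above the limit on both arrays of any group. MRPL22, MRPL58 and MRPS26 passed it through the EGF group alone, so for such genes it favours those high with EGF. Among genes that were not called, the largest changes were those of MRPL34 (0.88, limma adjusted p = 0.0788), MRPL32 (0.87) and MRPL4 (0.77). MRPS18B (-0.59) had the lowest value, also not called.

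The next comparison asked what gefitinib changed in cells given EGF. Of the 74 genes, 28 fell with EGF plus gefitinib relative to EGF and 0 rose. The 28 are 37.8% of the 74, against 9.81% of all probe sets called lower and 19.5% of those with a mean above the limit. For rises the same shares were 8.86% and 15.3%. The median change over the 74 was -0.48, against 0.03 over all named genes, and the changes ran from -2.10 to 0.51. Both EGF plus gefitinib signals were below both EGF signals for 53 genes (26.3% of all probe sets) and above them for 5 (30.8%). This comparison and the one before share the EGF arrays, and a deviation of those arrays enters both.

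**Figure D3:**
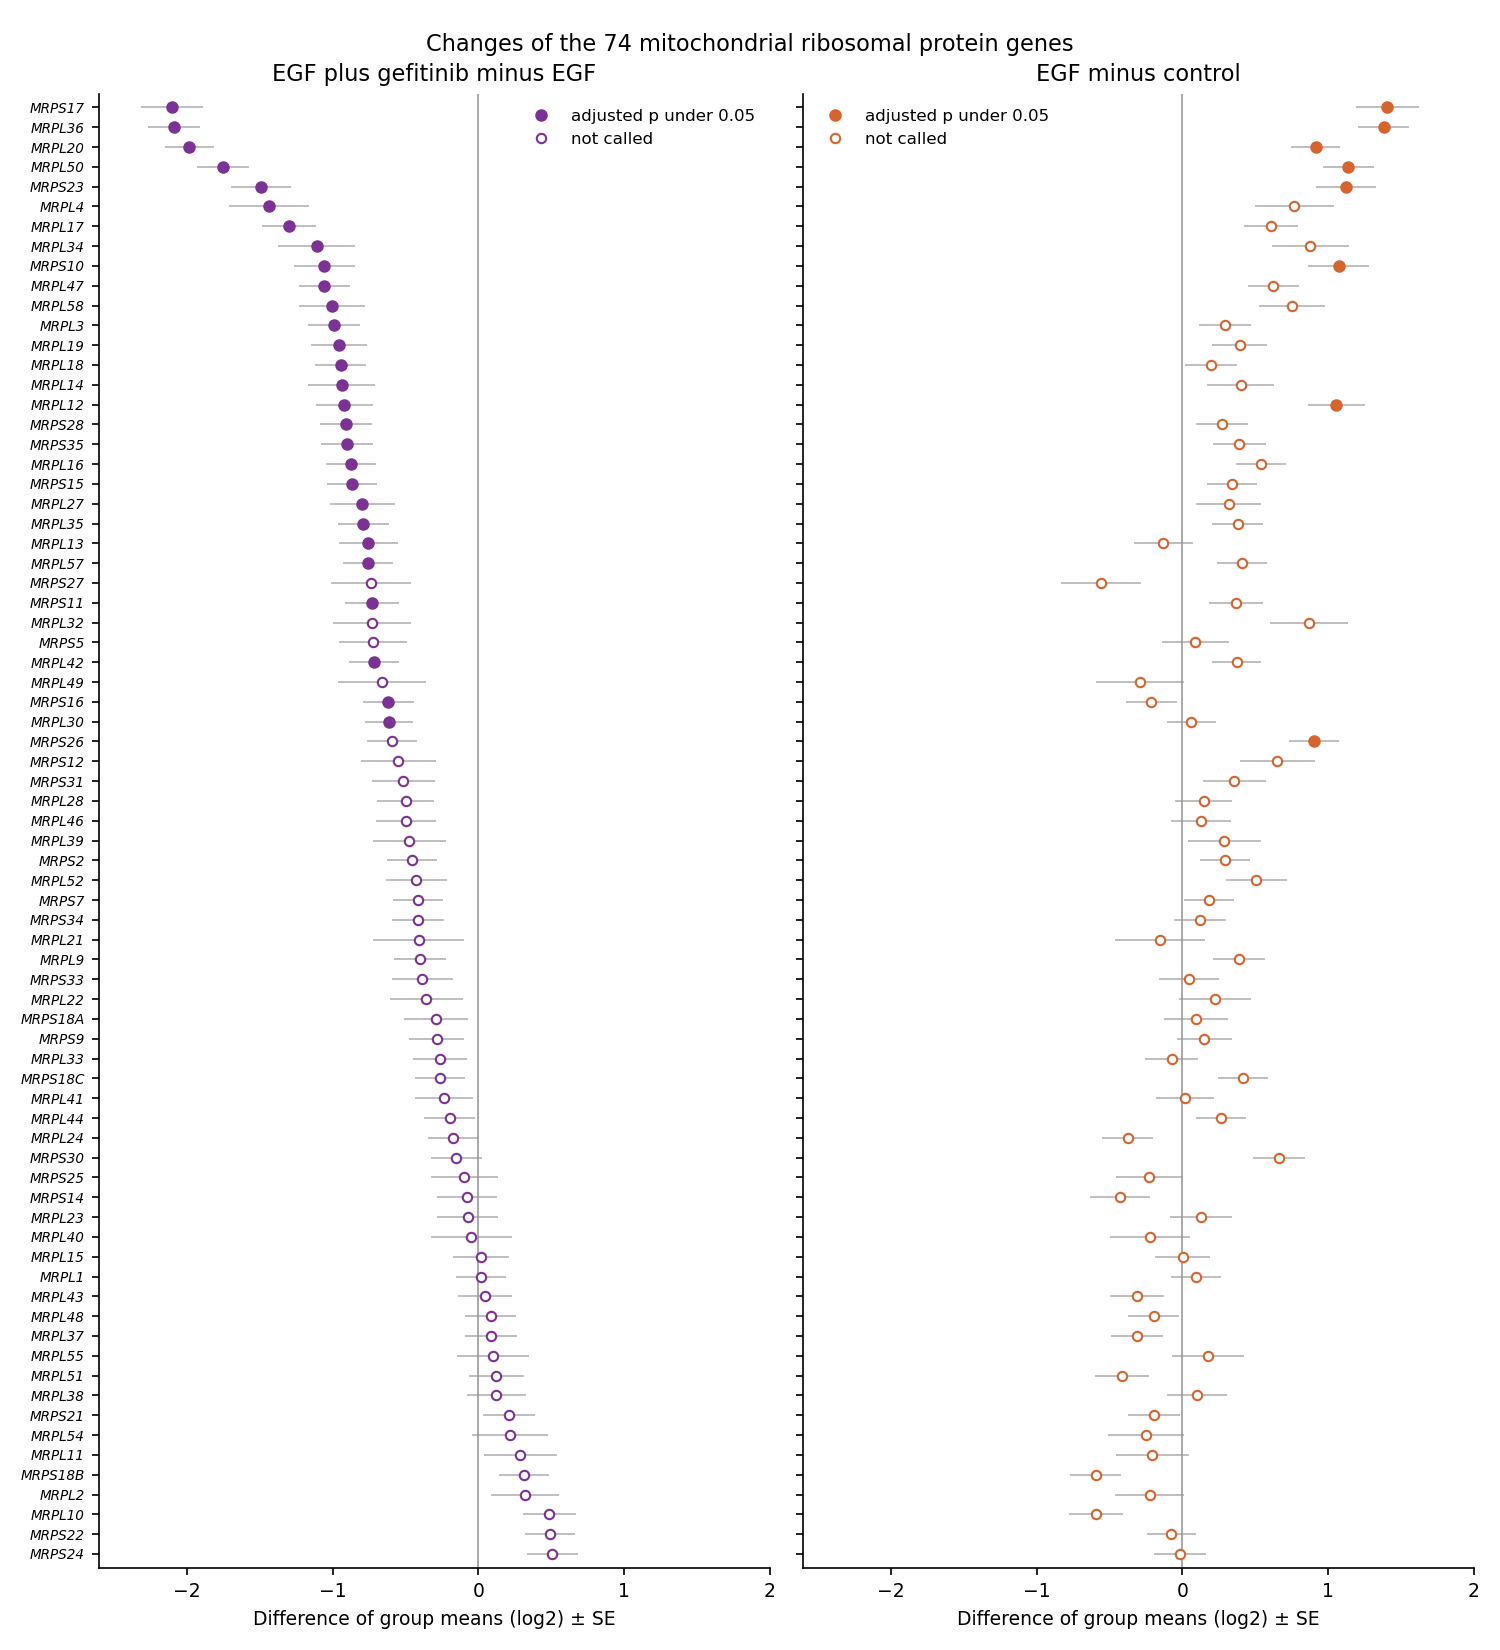
Changes of all 74 genes (x axis, difference of group means in log2, bars show the SE), ordered by the change between EGF plus gefitinib and EGF (left), beside the change between EGF and control (right). Filled points passed an adjusted p under 0.05, 28 on the left, all below 0, and 8 on the right, all above 0; the panels share the EGF arrays.

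The largest falls were those of MRPS17 (-2.10 ± 0.22, 4.29-fold, limma adjusted p = 0.00118) and MRPL36 (-2.09 ± 0.18, 4.25-fold, limma adjusted p = 0.000671), with the signals given above. MRPL20 fell by 1.98 ± 0.17 (3.95-fold, limma adjusted p = 0.000654) and MRPL50 by 1.75 ± 0.18 (3.36-fold, limma adjusted p = 0.00116). MRPS23 followed with -1.49 ± 0.20, a 2.81-fold fall. For these 5 genes the EGF plus gefitinib arrays lay below those of the control as well as those of EGF.

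MRPL4, whose bacterial counterpart lines the exit tunnel of the nascent chain, had 7.71 and 6.96 with EGF plus gefitinib, 8.93 and 8.61 with EGF and 7.96 and 8.05 in the control. Only 1 of its EGF plus gefitinib arrays was above the limit, and it fell by 1.44 ± 0.27. MRPL17, a large subunit protein with a bacterial counterpart, had 11.05 and 10.85 with EGF plus gefitinib, 12.37 and 12.13 with EGF and 11.65 and 11.63 in the control, in 3 separate groups. It fell by 1.30 ± 0.18. MRPL34, another such protein, had 7.76 and 6.997 with EGF plus gefitinib, 8.40 and 8.58 with EGF and 7.63 and 7.59 in the control. It fell by 1.11 ± 0.26, with 1 of the EGF plus gefitinib arrays above the limit. MRPS10 fell by 1.06 ± 0.21. MRPL47, a large subunit protein with a bacterial counterpart, had 10.58 and 10.62 with EGF plus gefitinib, 11.66 and 11.66 with EGF and 11.15 and 10.92 in the control, and it fell by 1.06 ± 0.18 with no overlap between groups. The limma adjusted p-values of all 28 ran from 0.000654 (MRPL20) to 0.0497 (MRPS16).

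The calls of 7 genes did not depend on any single array. MRPL17, MRPL20, MRPL36, MRPL47, MRPL50, MRPS17 and MRPS23 passed in 4 of 4 fits that left 1 array out. MRPL4 passed in 3 and was lost without EGF replicate 1. MRPL3, MRPL18 and MRPS28 passed in 2 of 4, and the other 17 in 1 or 0. In each of these 4 fits fewer mitochondrial ribosomal protein genes fell than with all arrays, and none rose. Fewer of all probe sets were called lower as well, so the loss of calls was not confined to these genes. Whether they lost a larger share of calls than other probe sets was not tested. Their median change ran from -0.56 to -0.35 in these fits, against -0.48 with all arrays.

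Other genes that fell have roles beyond the structure of the ribosome or are linked to human disease. MRPL58, a peptidyl-tRNA hydrolase that frees stalled ribosomes and is also built into the large subunit, had 7.33 and 7.43 with EGF plus gefitinib, 8.18 and 8.58 with EGF and 7.84 and 7.41 in the control. It fell by 1.0025 ± 0.23, with 1 EGF plus gefitinib array above the limit. MRPL3, a core large subunit protein whose mutations cause cardiomyopathy, had 12.74 and 12.65 with EGF plus gefitinib, 13.65 and 13.72 with EGF and 13.51 and 13.27 in the control. It fell by 0.99 ± 0.18, and the groups did not overlap. MRPL12 fell by 0.92 ± 0.19. MRPS16, linked to a neonatal respiratory chain deficiency, had 10.33 and 10.29 with EGF plus gefitinib, 11.01 and 10.85 with EGF and 11.07 and 11.21 in the control. It fell by 0.62 ± 0.18, and its EGF arrays were below those of the control. MRPL19 had 7.10 and 6.88 with EGF plus gefitinib, both at or below the limit, 7.87 and 8.02 with EGF and 7.45 and 7.66 in the control, so its fall was at least 1.39-fold (limma adjusted p = 0.0136).

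MRPS22 and MRPL44, also linked to mitochondrial disease, were not called. MRPS22 had 11.94 and 11.996 with EGF plus gefitinib, 11.43 and 11.53 with EGF and 11.52 and 11.59 in the control, a difference of 0.49 between EGF plus gefitinib and EGF. MRPL44, which has a fold of the RNase III family, had 10.60 and 10.61 with EGF plus gefitinib, 10.72 and 10.88 with EGF and 10.47 and 10.59 in the control. MRPS12, a protein of the decoding centre, was at or below the limit in all groups. The largest uncalled differences were those of MRPS27 (-0.73), MRPL32 (-0.73) and MRPS5 (-0.72). In all, 25 genes that were not called had both EGF plus gefitinib signals below both EGF signals. Called or not, 53 of the 74 genes had such a separation, against 26.3% of all probe sets. In a single gene it does not by itself mark a fall.

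The members of the MRPS18 family descend from 1 bacterial protein and occupy different places in the ribosome. MRPS18A, in the large subunit, had 12.73 and 12.22 with EGF plus gefitinib, 12.75 and 12.79 with EGF and 12.78 and 12.57 in the control. MRPS18B, in the small subunit, had 13.55 and 13.59 with EGF plus gefitinib, 13.30 and 13.21 with EGF and 13.94 and 13.76 in the control. MRPS18C, at the place of the bacterial protein, had 9.004 and 9.04 with EGF plus gefitinib, 9.24 and 9.34 with EGF and 8.95 and 8.79 in the control. None of the 3 was called in any comparison. MRPS18B was lowest on the EGF arrays and MRPS18C highest there, both without overlap between groups. MRPS30, the other MRPS gene of the large subunit, had 12.92 and 12.99 with EGF plus gefitinib, 13.03 and 13.18 with EGF and 12.37 and 12.51 in the control, and was not called.

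Genes of both subunits were called. With EGF plus gefitinib relative to EGF, 20 of 49 large subunit genes fell (40.8%, median -0.47) and 8 of 25 small subunit genes (32%, median -0.51). Of all probe sets 9.81% were called lower, and of those with a mean above the limit 19.5%. With EGF relative to control, 4 of 49 large subunit genes rose (8.16%, median 0.20) and 4 of 25 small subunit genes (16%, median 0.18). The shares called higher were 6.61% of all probe sets and 12.9% of those with a mean above the limit. The rises in each subunit were thus near the share of measurable probe sets or below it. Of the 47 genes with a bacterial counterpart, 22 fell with gefitinib (46.8%, median -0.61), and of the 27 without one, 6 (22.2%, median -0.41). These differences between groups of genes were not tested. MRPS11 was called lower (-0.73) and its head-to-head partner MRPL46 was not (-0.49). MRPL50, which fell by 1.75, starts 233 bases from ZNF189 on the opposite strand, which rose by 1.09 ± 0.22 in the same comparison (limma adjusted p = 0.0150). The call of ZNF189 was lost without EGF replicate 1 (0.97), EGF replicate 2 (1.20) or EGF plus gefitinib replicate 2 (0.88), and that of MRPS11 without any 1 of the 6 arrays (-0.86 to -0.61).

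The last comparison set EGF plus gefitinib against control. Of the 74 genes, 0 rose and 1 fell, which is 1.35% of them, against 2.19% of all probe sets called higher and 1.70% called lower, and 4.01% and 3.16% of those with a mean above the limit. The gene was MRPL20 (-1.07 ± 0.17, limma adjusted p = 0.0241), and it was not called in any of the 4 fits that left out 1 array. With the filter on dim probe sets 18 genes were called lower and 3 higher, beside 1351 and 1259 of the 9003 probe sets tested. The median change over the 74 was -0.28, against -0.0022 over all named genes, and the EGF plus gefitinib signals were both below both control signals for 40 genes (24.7% of all probe sets) and both above them for 9 (25.6%). The largest uncalled differences were those of MRPS27, a pentatricopeptide repeat protein (-1.29, limma adjusted p = 0.0503), MRPL49 (-0.95) and MRPL13 (-0.88). MRPS27 had 10.23 and 9.48 with EGF plus gefitinib, 10.55 and 10.63 with EGF and 11.32 and 10.96 in the control, so both treated groups lay below the control.

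Genes that act with the mitochondrial ribosome were examined from lists of its other proteins, translation factors, assembly factors, genome maintenance and expression factors and tRNA synthetases. Of 4 ribosome proteins without an MRP symbol, DAP3 and CHCHD1, both of the small subunit, fell with EGF plus gefitinib relative to EGF (-0.86 ± 0.18 and -0.93 ± 0.19). Of 12 translation factors, 4 fell and 0 rose, among them GFM1, the elongation factor that moves the ribosome along the mRNA (-1.18 ± 0.18), and MTRF1L, a release factor (-1.38 ± 0.18). Of 23 assembly factors, 6 fell and 3 rose. MPV17L2, an assembly factor of the inner membrane (-1.63 ± 0.17), DDX28 (-1.47) and MTG2, a GTPase of large subunit assembly (-1.30 ± 0.24), fell. METTL17 (1.37), YBEY, an endoribonuclease (1.29 ± 0.17), and NOA1, a GTPase of small subunit assembly (1.06 ± 0.17), rose. Of 14 factors of mitochondrial DNA and RNA, 4 fell and 1 rose. The gene that rose was POLG2 (1.08), a call lost without EGF replicate 1 or either EGF plus gefitinib array. PNPT1, the mitochondrial polynucleotide phosphorylase, fell by 2.91 ± 0.23, and POLRMT, the mitochondrial RNA polymerase, by 1.61 ± 0.27, with 1 of its EGF plus gefitinib arrays above the limit. Of 15 mitochondrial aminoacyl-tRNA synthetases 2 fell and 0 rose. The rises were 13% of the assembly factors and 7.14% of the DNA and RNA factors. Of all probe sets 8.86% were called higher, and of those with a mean above the limit 15.3%. The shares that fell were 33.3% of the translation factors, 26.1% of the assembly factors, 28.6% of the DNA and RNA factors and 13.3% of the synthetases, against the 9.81% of all probe sets and 19.5% of those with a mean above the limit given earlier. With 1 array of either group left out, 2 to 3 translation factors, 3 to 6 assembly factors, 2 to 3 DNA and RNA factors and 0 to 2 synthetases fell.

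In EGF against control, 1 of the 4 other ribosome proteins rose (DAP3, 0.78 ± 0.18), as did 2 of 12 translation factors (GFM1, 0.98 ± 0.18, and MTRF1L, 0.90 ± 0.18), 4 of 23 assembly factors, 4 of 14 factors of mitochondrial DNA and RNA and 2 of 15 synthetases. These shares were 16.7%, 17.4%, 28.6% and 13.3% from the translation factors to the synthetases, against 6.61% of all probe sets and 12.9% of those with a mean above the limit. With 1 array of either group left out, 1 to 2 DNA and RNA factors and 0 genes of the other 4 lists rose. Across these lists only YBEY fell (-1.0003 ± 0.17). It is 4.35% of the assembly factors, against 5.30% of all probe sets called lower and 9.58% of those with a mean above the limit. PNPT1 rose by 1.70 ± 0.23 and was called in 4 of 4 fits that left out 1 array, unlike DAP3, GFM1, MTRF1L and YBEY, each called in 0 of 4. For gefitinib against EGF, GFM1, MTRF1L, MPV17L2, YBEY, NOA1, PNPT1 and POLRMT were called in 4 of 4, MTG2 in 2, CHCHD1 in 1 and DAP3 in 0.

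**Figure D4:**
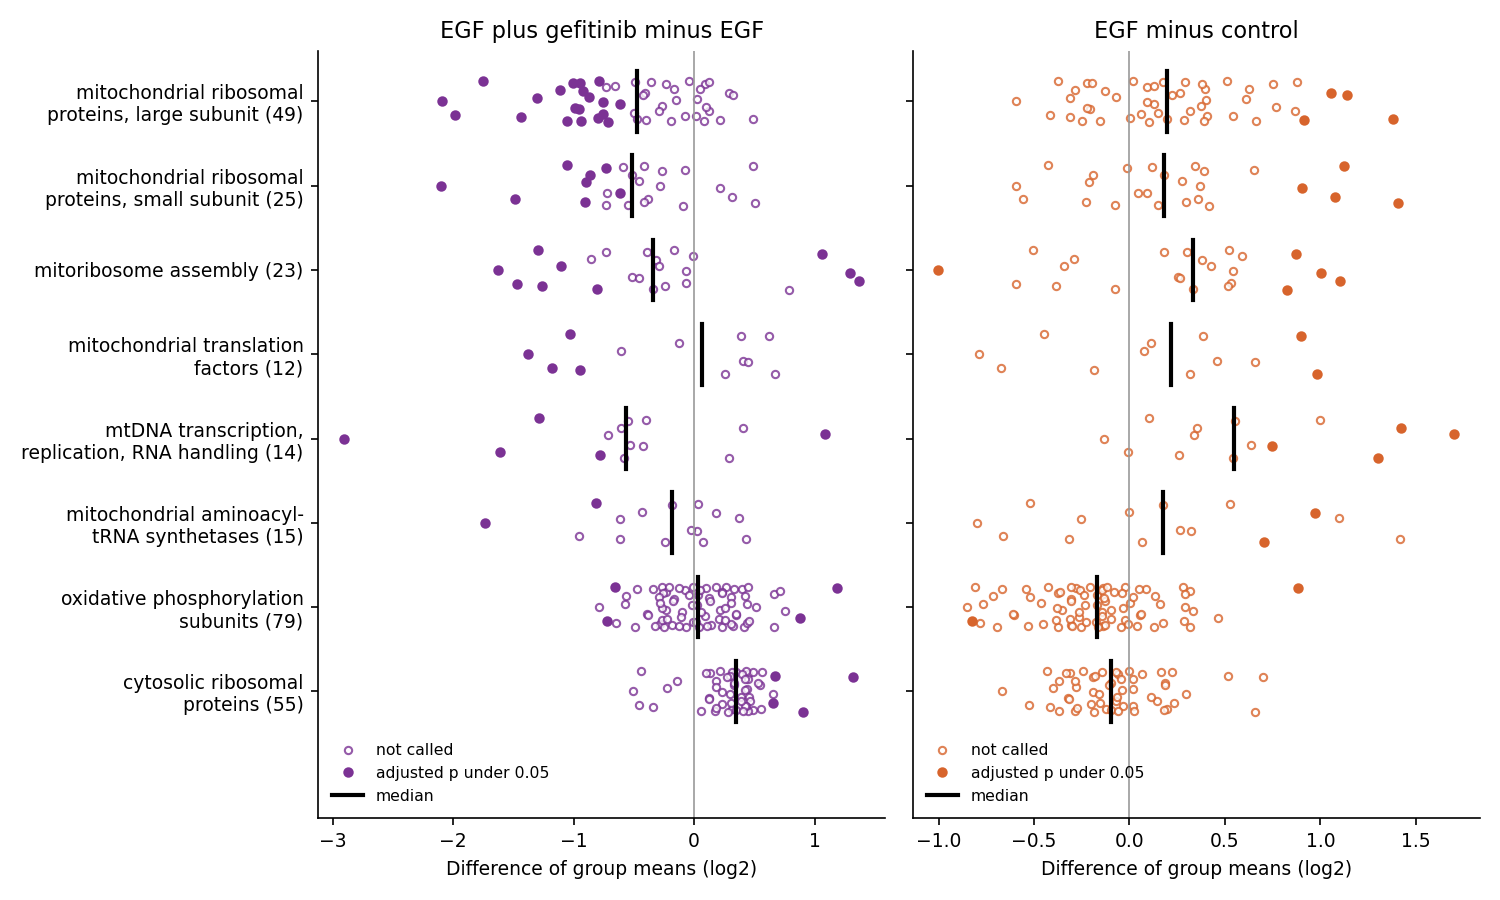
Changes of the genes of each list (x axis, difference of group means in log2) between EGF plus gefitinib and EGF (left) and between EGF and control (right); filled points passed an adjusted p under 0.05, black bars are list medians, and counts of genes are in parentheses. The large and small subunit medians stand at -0.47 and -0.51 on the left and at 0.20 and 0.18 on the right, while that of the cytosolic ribosomal proteins stands at 0.35 on the left and -0.10 on the right.

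The cytosolic ribosomal proteins and the respiratory chain gave other counts. Of 55 cytosolic ribosomal protein genes, 4 rose and 0 fell with EGF plus gefitinib relative to EGF (median 0.35), and 0 were called in EGF against control (median -0.10). The 4 are 7.27% of the list, against 8.86% of all probe sets called higher and 15.3% of those with a mean above the limit, and 1 to 3 rose with 1 array left out. Of 79 nuclear genes of oxidative phosphorylation, 2 rose and 2 fell with EGF plus gefitinib relative to EGF (median 0.03), and 1 rose and 1 fell with EGF (median -0.17). With gefitinib 2.53% were thus called each way, against 8.86% of all probe sets called higher and 9.81% called lower. Among those with a mean above the limit, the shares were 15.3% and 19.5%. With EGF 1.27% were called each way, against 6.61% and 5.30% of all probe sets. COX8C, 1 of the 2 that rose with gefitinib, was at or below the limit on all 6 arrays. With 1 array left out, 0 to 2 rose and 0 to 1 fell with EGF plus gefitinib relative to EGF, and 0 were called with EGF.

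Of 7 regulators known to act on nuclear genes for mitochondria, 4 fell and 1 rose with EGF plus gefitinib relative to EGF, and 3 rose and 0 fell with EGF relative to control. The 4 are 57.1%, against 9.81% of all probe sets called lower and 19.5% of those with a mean above the limit. The 1 that rose in that comparison is 14.3%, against 8.86% and 15.3% called higher. The 3 that rose with EGF are 42.9%, against 6.61% and 12.9% called higher. Both the 4 and the 3 include PPARGC1B, which was below the limit on all 6 arrays. With 1 array left out, 1 to 2 fell and 1 rose with gefitinib, and 1 to 2 rose with EGF. MYC had 12.92 and 12.73 with EGF plus gefitinib, 13.64 and 13.60 with EGF and 12.14 and 12.05 in the control. It rose with EGF by 1.52 ± 0.17 (limma adjusted p = 0.00325) and fell by 0.80 ± 0.17 with EGF plus gefitinib relative to EGF (limma adjusted p = 0.0201), the fall called in 1 of 4 fits with an array left out. PPRC1, a coactivator of NRF1 induced by growth signals, had 8.90 and 9.22 with EGF plus gefitinib, 10.30 and 10.54 with EGF and 9.03 and 8.95 in the control. It rose by 1.43 ± 0.20 with EGF, a call lost without EGF replicate 2, and fell by 1.36 ± 0.20 with gefitinib. PPARGC1A, the related coactivator PGC-1α, moved the other way, with 14.48 and 14.33 with EGF plus gefitinib, 12.97 and 13.02 with EGF and 13.53 and 13.72 in the control. Its rise with gefitinib was 1.41 ± 0.18 (limma adjusted p = 0.00255), and its difference between EGF and control, -0.63, was not called. NRF1 had 7.57 and 7.77 with EGF plus gefitinib, 7.94 and 7.67 with EGF and 7.97 and 8.12 in the control. Its 7.57 was below the limit of that array (7.65). GABPA, the DNA-binding subunit of GABP, had 8.84 and 8.89 with EGF plus gefitinib, 8.56 and 8.35 with EGF and 8.25 and 8.39 in the control. Neither was called in any comparison. ESRRA, an orphan nuclear receptor that works with the PGC-1 coactivators, had 6.92 and 7.14 with EGF plus gefitinib, both below the limit, 8.03 and 8.65 with EGF and 7.59 and 7.70 in the control. It was called lower with gefitinib (-1.31 ± 0.24, limma adjusted p = 0.0103), at least 1.83-fold with its EGF plus gefitinib arrays set at their limits, a call lost without EGF replicate 2 or EGF plus gefitinib replicate 1, and not called with EGF (0.70). PPARGC1B, the coactivator PGC-1β, was below the limit on all 6 arrays. It was called lower with gefitinib (-0.85) and higher with EGF (1.08), each in 0 of 4 fits that left out 1 array.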

How the data were processed

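RNA of A431 cells was measured on 6 arrays, 1 per sample, after labelling with the WT PLUS kit, per the labels' protocols. The authors deposited log2 values; the submitters' processing notes name Transcriptome Analysis Console. Its version and the steps run in it are not stated in the sources used here. That the values are log2 was inferred from their range, 1.93 to 18.49 over the transcripts. They were used as deposited, and no column was left without a sample.

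Of 24351 probe sets, 2903 controls were left out and the other 21448 were tested without a filter. In the platform annotation 17709 of these had 1 gene symbol, and 3739 were unnamed. No genes beginning with MRPL or MRPS had more than 1 probe set. Of genes known to encode mitochondrial ribosomal proteins, MRPL45, MRPL53 and MRPS6 were not analysed here. Neither was MRPS36, which despite its name encodes a subunit of the oxoglutarate dehydrogenase complex. RefSeq lists 94 pseudogenes for 38 of the 74 genes, and whether probes also bind their RNA was not tested.

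Groups were compared with limma 3.58.1 in R 4.3.3 (lmFit and eBayes, 1 fit with 3 group means, with 4.22 prior and 3 residual degrees of freedom). P-values were two-sided, with Benjamini-Hochberg adjustment over 21448 probe sets; a gene was called, and is said to rise or fall, at an adjusted p under 0.05. The fit was tested on simulated data. A gene that did not exceed the negative-control limit on either array of a group is known there only by a bound, and its fold is the brighter group's mean against that limit and is written "at least". Gene lists are described by counts and medians, with no set test.

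The genes and lists were chosen with earlier results of these data known. A rule picked in each comparison up to 10 called genes per direction and the 3 largest uncalled differences. It also picked genes with known roles or disease links, genes below the limit and up to 3 genes per related list and direction. The text leaves out some of the genes picked, most of them from the related lists. It gives no calls of those lists in EGF plus gefitinib against control. The other genes named were chosen after their values were seen. Samples of the same number did not deviate together (correlations across probe sets from -0.041 to 0.0213), so the numbers were not taken as pairs.

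The alternatives tried were a fit of only the groups compared, the replicate number as a block, quantile normalization, median centring and a filter on dim probe sets. Further ones were a floor at the limit, eBayes with trend and robust, a 1.5-fold threshold, the mean of probe sets per gene and leaving out each array. The filter kept probe sets above the limit on both arrays of any group. A gene can thus pass only through the group in which it is high, so its counts are no independent support.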

Additional observations from a re-analysis of the deposited data

How the results depend on the processing

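The number of arrays and the dim signals of some genes limit these results. The direction of the median change over the 74 genes was the same under every alternative run, from 0.13 to 0.25 for EGF against control, -0.56 to -0.35 for EGF plus gefitinib against EGF (-0.5575 with median centring) and -0.35 to -0.20 for EGF plus gefitinib against control. Some alternatives could not have changed this median. The mean of probe sets per gene leaves it as it is, since each of the 74 genes has 1 probe set. The fit of only the groups compared, the replicate block and eBayes with trend and robust leave it unchanged too. None of them alters a difference of group means. Leaving out an array of the group not compared also leaves it as it is, and the 1.5-fold threshold gives no median. Counts of calls were less stable. In EGF against control, 8 genes rose, and 19 did with the filter on dim probe sets, 16 with the floor at the limit, 17 with trend and robust and 1 to 10 with 1 array left out; 0 fell, but 1 did with quantile normalization, 2 with the filter, 3 with the floor and 3 with trend and robust. In EGF plus gefitinib against EGF, 28 genes fell, and 23 to 37 did under the other alternatives and 8 to 23 with 1 array left out (medians -0.5607 to -0.3507); 0 rose, but 3 did with the filter and 2 with trend and robust. In EGF plus gefitinib against control, 1 gene fell, and 3 did with median centring, 18 with the filter, 14 with the floor, 15 with trend and robust, 0 in the fit of only the 2 groups and 0 with 1 array left out (medians -0.3524 to -0.1981); 0 rose, but 3 did with the filter and 2 with trend and robust. The larger counts go with more calls among all probe sets, 2281 higher and 1960 lower in EGF against control with trend and robust, beside 1417 and 1137. The cause of the other changes was not tested. With the replicate number as a block, 8 genes rose with EGF, 23 fell with EGF plus gefitinib against EGF and 0 fell against control. PPARGC1B, below the limit on all arrays, changed sign in EGF plus gefitinib against EGF with the floor at the limit (0.0964 against -0.8492), since the floor replaces all its values.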
